A study of Mus musculus with 140 samples.

Results

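Septic and sham-operated mice were compared in laser-microdissected peritubular capillaries of the kidney, 72 h after surgery. The comparison holds 8 of the 140 libraries of the series, 4 from mice with sepsis after cecal ligation and puncture (CLP, a procedure that lets gut bacteria leak into the abdomen) and 4 from sham-operated mice, chosen by the labels for compartment, time and disease state. All were male wild-type C57BL6/OlaHsd mice, and no other treatment is given in the labels. The series as a whole follows 28 mice, healthy or 4, 24 or 72 h after either operation, in 4 microdissected vessel compartments and in whole kidney. Each library comes from 1 mouse and was made with Lexogen QuantSeq, which reads the 3′ end of transcripts. Because the CLP libraries held counts for few genes, the main reading was restricted to genes counted in all 8 libraries, which were 848 of the 14160 genes with a count in any of them.

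Peritubular capillaries are the thin, fenestrated vessels that wrap around the kidney tubules and take back the water, salts and solutes that the tubules reabsorb. Their endothelium lies against the proximal tubule, whose cells are packed with mitochondria and carry out most of that reabsorption through sodium-coupled transporters. In sepsis the kidney is known for a loss of function in which microvascular flow and tubular metabolism are both disturbed.

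With CLP, 2 of the 848 genes rose and none fell at an adjusted p below 0.05. They were mt-Rnr2, the large ribosomal RNA of the mitochondrion, and Cyp4a14, a fatty acid omega-hydroxylase of the proximal tubule that the nuclear receptor PPAR-alpha induces. Some genes of proximal tubule transport and metabolism (Kap, Slc34a1, Acsm2, Acy3) and messenger RNAs of the mitochondrial genome (mt-Nd1, mt-Nd2, mt-Nd4) did not pass. Their values were lower in every CLP library than in any sham library, as for 5.66% of all 848 genes. All but mt-Nd1 were named by a rule that required such separation. Napsa and Pck1, on the same proximal tubule list as Kap, were higher in every CLP library and did not pass either. Counts of pan-endothelial markers were sparse in CLP libraries, and none of the 17 such genes followed was counted in all 8 libraries. Of 14 genes of peritubular capillary and venous endothelium 4 were counted in all 8, and the summed counts of the 14 overlapped between groups.

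The library labels could be checked against defining genes. The 4 sham libraries held 12 to 16 of the 17 pan-endothelial genes, and the 4 CLP libraries held 4 to 10. Summed over those 17 genes, counts per M counts (CPM, with M for mega, here of the unscaled library total) were 32.4 to 970 in CLP libraries and 699 to 1134 in sham libraries. The 14 genes of peritubular capillary and venous endothelium summed to 1677 to 3777 CPM of the unscaled total in CLP libraries and 2397 to 3407 in sham libraries, and 5 to 11 of them were detected in a CLP library and 8 to 11 in a sham library. Aqp1 is on this list and also on that of proximal tubule transporters, so this sum is not of endothelium alone. The 68 genes of the lists for proximal tubule transporters and enzymes, in contrast, took 10.7 ± 1.32% of counts in CLP libraries and 15.8 ± 1.92% in sham libraries (SD, n = 4 each). Tubule transcripts therefore outnumbered endothelial ones in both groups, and the values below describe these libraries rather than purified endothelium. In such bulk samples fewer cells of a type and less RNA per cell cannot be told apart.

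CLP libraries detected fewer genes at similar depth. Genes with at least 1 count numbered 2949, 5595, 3281 and 4020 in the CLP libraries and 9816, 7681, 7137 and 8321 in the sham libraries. Total counts were 5.68, 8.74, 9.01 and 10.6 M in the CLP libraries and 18.3, 7.28, 8.69 and 7.11 M in the sham libraries. The ranges of detected genes did not overlap, while those of total counts did, and a CLP library with more counts than 3 of the sham libraries detected fewer genes than any of them. At an equal number of counts the CLP libraries detected 3838 ± 1134 genes and the sham libraries 8019 ± 998 (SD, n = 4 each; exact permutation test, two-sided, p = 0.0286, the smallest this design allows). Genes counted in all 8 libraries took 62.2 to 72.5% of the counts of CLP libraries and 56.8 to 58.5% of those of sham libraries.

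**Figure D1:**
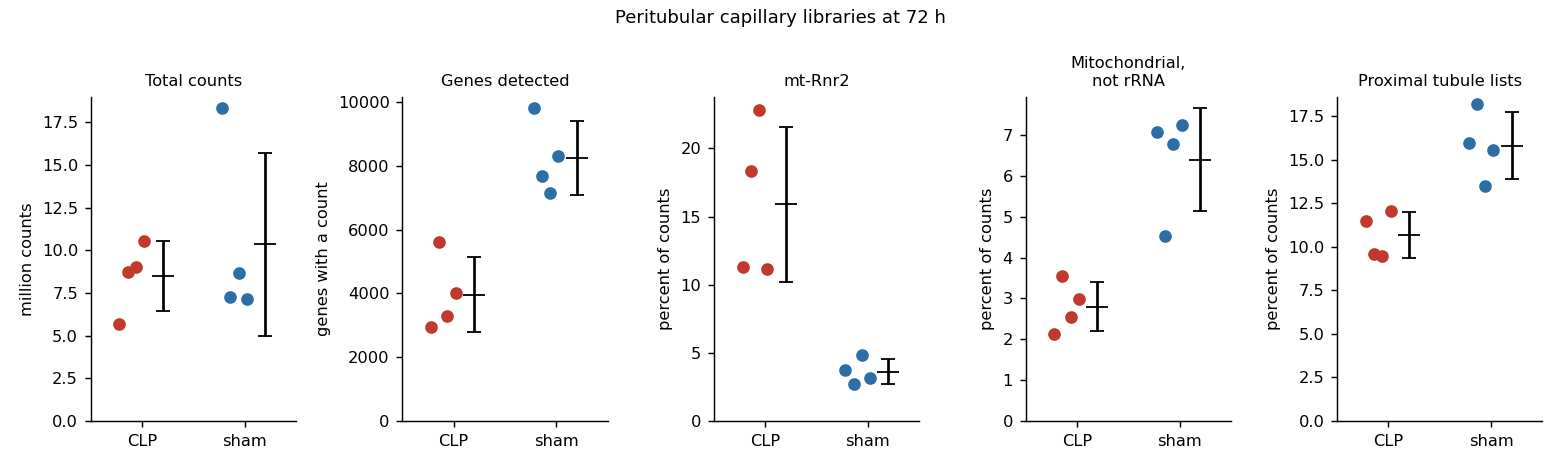
Values of the 8 peritubular libraries at 72 h, CLP left and sham right, with 1 point per mouse and the group mean and SD. CLP libraries detected 2949 to 5595 genes against 7137 to 9816 in sham libraries, and mt-Rnr2 took 11.1 to 22.8% of their counts against 2.68 to 4.86%.

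In the other compartments of the same mice, genes detected overlapped between CLP and sham. CLP whole kidney libraries detected 18019 to 19042 genes and sham whole kidney libraries 17932 to 18762. In glomeruli the ranges were 10836 to 12646 with CLP and 11273 to 11647 with sham, and in post-capillary venules 9774 to 10936 with CLP and 8357 to 10850 with sham. In arterioles they were 6534 to 8034 with CLP and 7002 to 9621 with sham. The difference between compartments in genes detected was not tested.

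Peritubular libraries of both operated groups detected fewer genes at 24 and 72 h than those of healthy mice or of mice at 4 h. Healthy mice had 11443 to 13121 detected genes. At 4 h CLP libraries had 11522 to 13327 and sham libraries 10950 to 13079, and at 24 h CLP libraries had 5358 to 7811 and sham libraries 6827 to 9044. The ranges of CLP and sham overlapped at 4 and at 24 h and were apart at 72 h.

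**Figure D2:**
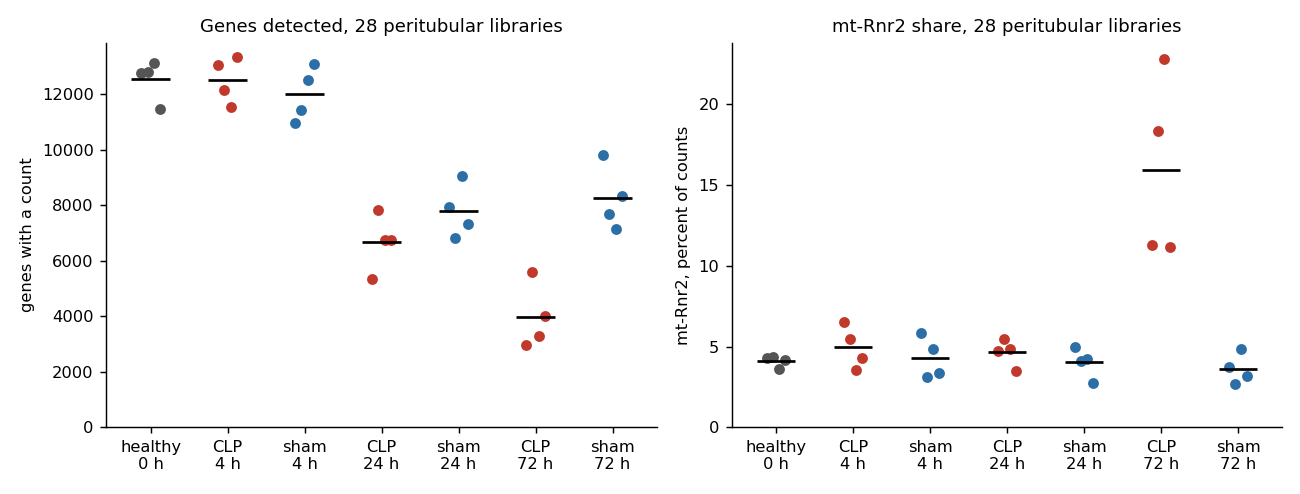
Genes detected (left) and the share of counts in mt-Rnr2 in percent (right) in all 28 peritubular libraries, by operation and hours after it, with 1 point per mouse. CLP libraries at 72 h detected 2949 to 5595 genes, partly below the lowest of any other group (5358, CLP at 24 h), and their mt-Rnr2 shares lie above all others.

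Much of the shift in composition came from mt-Rnr2, encoded on the mitochondrial genome (ENSMUSG00000064339, GRCm38, chromosome M, 1094 to 2675, plus strand). It had 121132, 189878, 254526 and 114098 CPM in the CLP libraries and 32756, 25304, 52252 and 28181 CPM in the sham libraries. Every CLP value was more than any sham value, and the CLP values differed among themselves by more than the sham values did. The log2 fold change was 2.29 ± 0.32 (SE; edgeR quasi-likelihood test, adjusted p = 0.00914), in a test in which 0.236% of genes passed. It took 15.9 ± 5.70% of all counts in CLP libraries and 3.61 ± 0.935% in sham libraries (SD, n = 4 each; exact permutation test, two-sided, p = 0.0286, adjusted p = 0.0408 over 10 comparisons of library values). The adjusted p was 0.0672 without CLP replicate 2, 0.0726 without sham replicate 1 and 0.0848 with a wider gene filter (filterByExpr on the 8 libraries). Nuclear copies of mitochondrial sequence are known, and how reads matching several places were counted is not given in the sources used here.

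The other transcripts of the mitochondrial genome did not pass. Of the 15 genes on that list, 8 were counted in all 8 libraries, and 1 of these rose and none fell. In the fit of all 28 peritubular libraries described further on, 2 of the 10 tested genes of this list were higher (mt-Rnr2 and mt-Rnr1) and 4 lower (mt-Nd1, mt-Nd2, mt-Nd4 and mt-Co1), where 1.8% of the 11772 genes tested were higher and 20.5% lower. The smaller ribosomal RNA, mt-Rnr1, had 7641, 7997, 12163 and 6036 CPM in the CLP libraries and 3171, 3074, 7423 and 1679 CPM in the sham libraries. Only sham replicate 3 reached into the CLP range (log2 fold change 1.14 ± 0.42, adjusted p = 0.312). The messenger RNAs for respiratory complex I lay the other way: mt-Nd4 had 7321, 10588, 10071 and 12455 CPM in the CLP libraries and 22785, 15480, 19128 and 26149 CPM in the sham libraries. For mt-Nd2 the CLP libraries had 6665, 6137, 5294 and 7602 CPM, and the sham libraries 12332, 12249, 38647 and 12758 CPM. Both genes, and mt-Nd1, had CLP values wholly below the sham values, with log2 fold changes of -1.05 ± 0.26 and -1.56 ± 0.39 (adjusted p = 0.128 each) and, for mt-Nd1, -0.65 ± 0.25 (adjusted p = 0.324). The subunit of cytochrome c oxidase mt-Co1 (-1.36), cytochrome b mt-Cytb (-0.58) and mt-Nd5 (-0.51) had negative log2 fold changes and overlapping values. Mitochondrial transcripts other than the ribosomal RNAs took 2.80 ± 0.604% of counts in CLP libraries and 6.41 ± 1.26% in sham libraries (SD, n = 4 each; exact permutation test, two-sided, p = 0.0286). In whole kidney at 72 h none of the 10 tested genes of this list passed, and mt-Rnr2 averaged 11203 ± 2660 CPM in CLP mice and 11375 ± 1469 CPM in sham mice (SD, n = 4 each).

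Cyp4a14 (ENSMUSG00000028715, GRCm38, chromosome 4, 115486200 to 115496142, minus strand) had 1963, 2287, 549 and 1023 CPM in the CLP libraries and 40.7, 69.9, 68.6 and 167 CPM in the sham libraries. The lowest CLP value was more than 3 times the highest sham value. The log2 fold change was 4.07 ± 0.66 (edgeR, adjusted p = 0.0195). The adjusted p was 0.0967 without CLP replicate 2, and 0.103, 0.127 and 0.0863 without sham replicates 1, 2 and 3. It was 0.175 when every gene with a count in any library was tested. In whole kidneys of the same mice it averaged 684 ± 137 CPM with CLP and 68.9 ± 50.9 CPM with sham, and it passed there too (log2 fold change 3.31 ± 0.79, adjusted p = 0.0154). The change in peritubular libraries minus that in whole kidney was 0.27 ± 0.65 on the log2 scale (adjusted p = 0.905). Cyp4a14 has close relatives in a gene cluster, among which short 3′ reads can be split. One of them, Cyp4a10, had raw counts of 0, 5272, 10566 and 6953 in the CLP libraries and 9386, 4953, 6212 and 2080 in the sham libraries, with overlapping ranges.

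Of the 32 PPAR-alpha targets and genes of fatty acid oxidation followed 6 were counted in all 8 libraries, with Cyp4a14 passing, and their median log2 fold change was -0.35, beside 0.16 for all 848 genes.

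Beyond the genes that passed, 50 genes (5.9%) had every CLP value above every sham value, and 48 (5.66%) had every CLP value below. Without 1 library at a time the counts were 56 to 78 higher and 54 to 79 lower, with the most higher genes (78) without CLP replicate 2. Such a recount on the same values can only keep or raise the counts. All 48 of the lower genes and 44 of the 50 higher genes were protein coding. The median span of the gene in the annotation was 16811 bp for lower genes, 29760 bp for higher genes and 24302 bp for genes with overlapping values. Across the 848 genes, 485 (57.2%) had a fold change above 1.

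The 4 lower genes of smallest p are all genes of the proximal tubule. Their promoters are printed here because these genes lay lower together, from 250 bases before to 50 bases after the start in RefSeq (GRCm38.p6), 5′ to 3′ on the strand of the gene. Capitals mark TATAAA, the core of a TATA box, and GTTAAT or its reverse complement, a second motif that was searched. The windows are chr7:119554090-119554389, plus strand, for Acsm2 (the first of 2 starts), chr6:133853618-133853917, minus strand, for Kap, chr13:55399398-55399697, plus strand, for Slc34a1, and chr19:3986320-3986619, plus strand, for Acy3.
Acsm2: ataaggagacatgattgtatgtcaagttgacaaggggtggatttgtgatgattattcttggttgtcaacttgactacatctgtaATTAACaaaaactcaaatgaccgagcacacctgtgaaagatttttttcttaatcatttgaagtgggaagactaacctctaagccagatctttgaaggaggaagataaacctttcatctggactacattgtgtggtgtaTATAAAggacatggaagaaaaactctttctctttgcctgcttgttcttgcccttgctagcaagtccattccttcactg
Kap: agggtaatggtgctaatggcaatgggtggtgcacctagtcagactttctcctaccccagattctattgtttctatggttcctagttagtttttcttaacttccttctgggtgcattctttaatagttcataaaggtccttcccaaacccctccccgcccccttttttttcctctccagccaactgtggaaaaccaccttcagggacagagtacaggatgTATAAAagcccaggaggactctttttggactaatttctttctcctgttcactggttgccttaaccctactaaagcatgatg
Slc34a1: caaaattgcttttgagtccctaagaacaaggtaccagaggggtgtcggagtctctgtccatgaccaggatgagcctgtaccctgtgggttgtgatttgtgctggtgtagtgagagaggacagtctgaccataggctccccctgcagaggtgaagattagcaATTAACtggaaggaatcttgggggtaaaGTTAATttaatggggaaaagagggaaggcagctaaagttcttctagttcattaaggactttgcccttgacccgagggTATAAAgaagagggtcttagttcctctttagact
Acy3: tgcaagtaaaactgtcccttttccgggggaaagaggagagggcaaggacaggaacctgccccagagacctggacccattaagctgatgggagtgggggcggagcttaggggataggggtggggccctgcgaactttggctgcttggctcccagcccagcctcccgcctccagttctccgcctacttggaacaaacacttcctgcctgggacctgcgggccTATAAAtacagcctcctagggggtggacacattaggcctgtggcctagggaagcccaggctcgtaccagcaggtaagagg

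The motif TATAAA lies 28 bases before the start of Acsm2, 31 before that of Kap and 30 before that of Acy3, while in Slc34a1 it lies 16 bases after the start. The motif GTTAAT occurs once in the Acsm2 window and at 2 places in that of Slc34a1, and not in those of Kap and Acy3. Searched on both strands, TATAAA is in 13.6% of the 32851 promoter windows in the table, in 9.28% of those of genes counted in all 8 libraries, in 15.9% of the 44 windows of lower genes and in 8% of the 50 windows of higher genes. For GTTAAT these shares are 7.1%, 6.38%, 9.09% and 6%. A match is a string of letters and not a measured site.

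Kap, the kidney androgen-regulated protein and among the most counted transcripts of the male mouse kidney, had 23522, 22622, 27878 and 27365 CPM in the CLP libraries and 53447, 72624, 46058 and 43322 CPM in the sham libraries. Slc34a1, the main phosphate transporter of the brush border, had 4060, 4921, 3948 and 3687 CPM in the CLP libraries and 7216, 10018, 9955 and 9363 CPM in the sham libraries. The values of both genes lay apart between groups, as the naming rule required. Their log2 fold changes were -1.09 ± 0.23 and -1.14 ± 0.24 (edgeR, adjusted p = 0.0761 each). Acsm2, a medium-chain acyl-CoA synthetase, had 1346, 2609, 2659 and 2912 CPM in the CLP libraries and 6679, 5982, 6911 and 6539 CPM in the sham libraries. Acy3, an aminoacylase that removes acetyl groups from mercapturic acids and aromatic amino acids, had 286, 519, 88.1 and 1027 CPM in the CLP libraries and 4321, 3118, 3177 and 2933 CPM in the sham libraries. For Acsm2 the lowest value was in CLP replicate 1, and for Acy3 the CLP values varied widely but stayed under all sham values. Their log2 fold changes were -1.45 ± 0.30 and -2.82 ± 0.61 (adjusted p = 0.0761 each). These 4 genes passed in the edgeR fit of all 28 peritubular libraries. Their adjusted p there were 0.00382 for Kap, 4.53e-05 for Slc34a1, 9.60e-07 for Acsm2 and 1.82e-07 for Acy3. In that fit 20.5% of the 11772 genes tested were lower and 1.8% higher, and the spread was pooled over 7 groups of 4 mice. That fit also changed the genes tested and the scaling, and the median log2 fold change of the genes counted in all 8 went from 0.16 to -0.15. In an edgeR fit of the 28 libraries on the same 848 genes the adjusted p were 0.00183, 0.00747, 7.76e-05 and 3.75e-04 in that order. With scaling by library totals alone, Kap, Slc34a1 and Acsm2 also passed among the 8 libraries, where the median of the 848 genes was -0.02. Of 17 alternative settings, Kap and Acsm2 passed in 6 each, Slc34a1 in 4 and Acy3 in 7. With DESeq2, Kap and Slc34a1 did not pass (adjusted p = 0.117 and 0.0759). In edgeR with a replicate block none of these genes passed (adjusted p = 0.142 to 0.313).

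**Figure D3:**
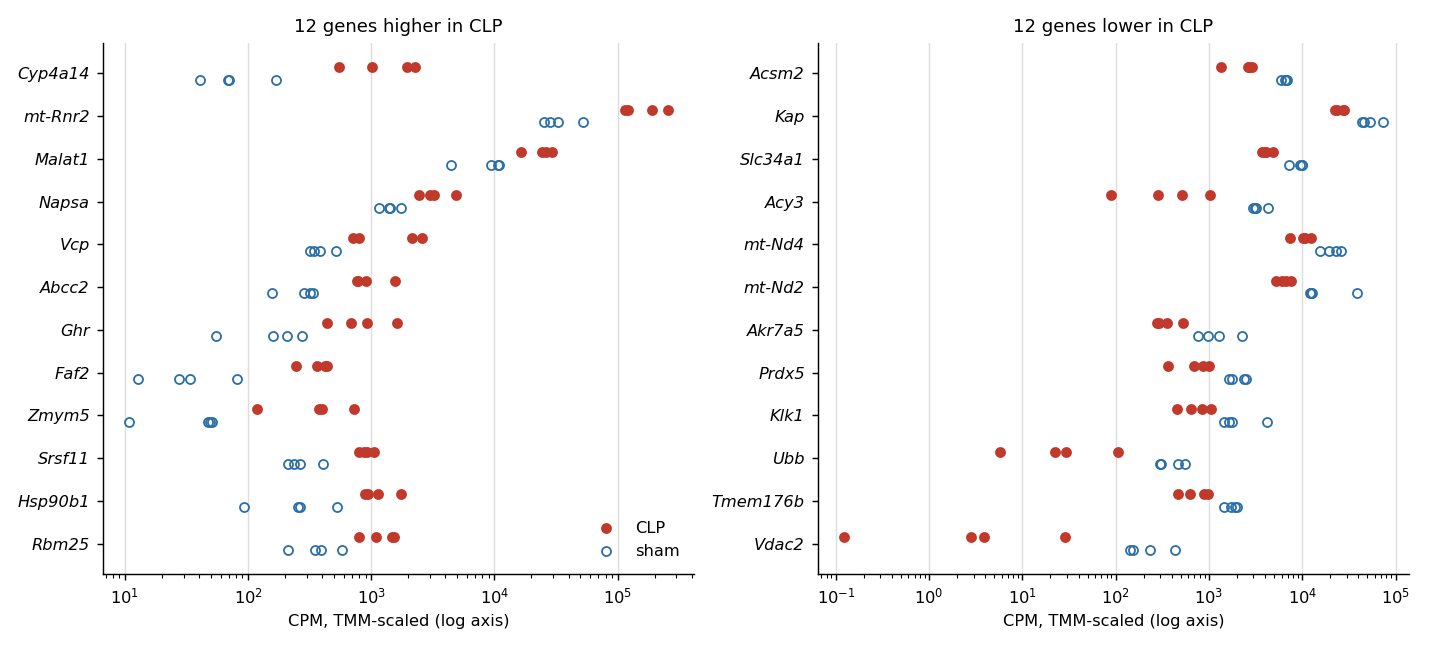
Expression of the 12 higher and 12 lower genes named by rule, as TMM-scaled CPM on a log axis, with 1 point per library and CLP above sham within each gene. The rule took only genes whose 4 CLP values lay on 1 side of the 4 sham values, so that separation was set by selection. Cyp4a14 and mt-Rnr2 alone passed the test.

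Over the proximal tubule lists, most log2 fold changes were negative and small. Of 29 transporters, 19 were counted in all 8 libraries, none passed, 2 had CLP values wholly below (Slc34a1 and the organic anion transporter Slc17a3) and none wholly above, and the median log2 fold change was -0.31. Of 39 enzymes and other proximal tubule genes, 27 were counted in all 8, none passed, 6 had CLP values wholly below (among them Kap, Acsm2, Ass1, Inmt and Ugt2b37) and 2 wholly above (Napsa and Pck1, the gluconeogenic enzyme), and the median was -0.21. The same median over all 848 genes was 0.16. Over all of them, 5.66% had CLP values wholly below and 5.9% wholly above. Gpx3, the glutathione peroxidase that the proximal tubule secretes into plasma, had overlapping values and a log2 fold change of 0.52 ± 0.24 (adjusted p = 0.443). Of the endocytic receptors, Lrp2 (megalin) had 168, 1225, 1802 and 378 CPM in the CLP libraries and 613, 303, 456 and 364 CPM in the sham libraries, with sham values inside the CLP range. The bicarbonate cotransporter Slc4a4 had a log2 fold change of 0.59 ± 0.38 (adjusted p = 0.602). In the 28-library fit 5 of the 29 transporters and 11 of the 39 enzymes and other genes were lower, and none was higher. There 20.5% of all genes tested were lower and 1.8% higher.

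No gene of the later nephron segments passed. Of 22 genes of the loop of Henle, distal tubule and collecting duct, 8 were counted in all 8 libraries with 2 wholly above (where 5.9% of all 848 genes were) and a median log2 fold change of 0.76, which ran from 0.38 to 0.85 over the alternatives. In the 28-library fit 3 of the 22 were lower (Pvalb, Calb1 and Scnn1a) and none higher, where 20.5% of all genes tested were lower and 1.8% higher. Wfdc2, a protease inhibitor of distal epithelium, had 1807, 699, 969 and 620 CPM in the CLP libraries and 176, 520, 387 and 357 CPM in the sham libraries. Slc12a1, the target of loop diuretics, had 360, 637, 560 and 778 CPM in the CLP libraries and 263, 328, 352 and 290 CPM in the sham libraries. In both genes all CLP values exceeded all sham values, with log2 fold changes of 1.51 ± 0.54 (adjusted p = 0.296) and 0.92 ± 0.52 (adjusted p = 0.545). Umod (uromodulin), made by the same segment as Slc12a1, had overlapping values (0.43 ± 0.40, adjusted p = 0.753). In the same list Calb1, a calcium-binding protein of the distal tubule, had raw counts of 0, 1, 0 and 0 in the CLP libraries and 4819, 1802, 2212 and 2345 in the sham libraries, a difference opposite to that of Slc12a1. Klk1, the tissue kallikrein of the connecting tubule, had 451, 838, 1045 and 638 CPM in the CLP libraries and 1630, 1783, 1459 and 4232 CPM in the sham libraries, all CLP values being lower (log2 fold change -1.61 ± 0.45, adjusted p = 0.134).

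Among the higher genes named by rule, Malat1, a long noncoding RNA kept in the nucleus, had 24563, 29196, 26164 and 16365 CPM in the CLP libraries and 9362, 4435, 10722 and 10948 CPM in the sham libraries (log2 fold change 1.44 ± 0.32, adjusted p = 0.0761). The splicing proteins Rbm25 and Srsf11 had log2 fold changes of 1.68 ± 0.47 and 1.702 ± 0.47 (adjusted p = 0.134 each). Vcp, the ATPase that pulls ubiquitin-tagged proteins out of membranes and complexes, had 2571, 710, 792 and 2150 CPM in the CLP libraries and 341, 386, 516 and 320 CPM in the sham libraries. Faf2, which brings Vcp to the endoplasmic reticulum, had 424, 438, 366 and 245 CPM in the CLP libraries and 27.5, 12.8, 80.8 and 33.6 CPM in the sham libraries. Hsp90b1, the HSP90 chaperone of the endoplasmic reticulum, had 1733, 884, 942 and 1141 CPM in the CLP libraries and 265, 256, 531 and 93.2 CPM in the sham libraries. In all 3 genes every CLP value was higher, as the naming rule required, and none passed. Their log2 fold changes were 1.99 ± 0.52, 3.25 ± 0.88 (adjusted p = 0.128 each) and 2.04 ± 0.57 (adjusted p = 0.134). Of the 20 proteasome and ubiquitin genes 4 were counted in all 8 and none passed, with a median of -0.72. Of the 17 heat shock and chaperone genes 9 were counted in all 8, with a median of -0.32, below the median of 0.16 for all 848 genes. Among these 9, 1 had CLP values wholly above sham (Hsp90b1) and 1 wholly below, where 5.9% and 5.66% of all 848 genes did. The cytosolic chaperone Hspa8 had a log2 fold change of -0.80 ± 0.56 (adjusted p = 0.644) and overlapping values.

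The remaining higher genes were Ghr, the growth hormone receptor, at 2.40 ± 0.65, Abcc2, an efflux pump of the apical membrane, at 1.87 ± 0.50, Napsa, an aspartic protease of tubule and lung, at 1.24 ± 0.32, and Zmym5 at 3.36 ± 0.91 (log2 fold changes, adjusted p = 0.128 each). None of the 4 passed in whole kidney, where their log2 fold changes were -0.11, -0.37, -0.20 and -0.04 in that order. Gm42418, a noncoding locus singled out after its values were seen, had 42622 to 108314 CPM in the CLP libraries and 8286 to 44026 CPM in the sham libraries, overlapping at 1 library (1.97 ± 0.53, adjusted p = 0.128).

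Among the lower genes were 2 of antioxidant and aldehyde defence. Prdx5, a peroxiredoxin of mitochondria and peroxisomes, had 873, 690, 990 and 365 CPM in the CLP libraries and 1771, 2405, 2493 and 1630 CPM in the sham libraries. Akr7a5, an aldehyde reductase, had 356, 280, 530 and 289 CPM in the CLP libraries and 761, 2258, 1273 and 966 CPM in the sham libraries. Neither gene passed, with log2 fold changes of -1.51 ± 0.40 and -1.85 ± 0.49 (adjusted p = 0.128 each). No CLP value reached the sham values, as the naming rule required. Akr7a5 is not on the list of 21 antioxidant and NRF2 target genes. The 10 members of that list counted in all 8 had a median of -0.70, with 2 log2 fold changes above 0 and 8 below. Of these 10, 1 had CLP values wholly above the sham values and 1 (Prdx5) wholly below, where 5.9% and 5.66% of all 848 genes did. Sod1 (superoxide dismutase, -0.85 ± 0.37) and Cat (catalase, -0.90 ± 0.58) had overlapping values.

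Other lower genes had few counts in CLP libraries. Vdac2, a channel of the outer mitochondrial membrane, had 28.9, 2.84, 0.124 and 3.88 CPM in the CLP libraries and 152, 232, 143 and 434 CPM in the sham libraries. Ubb, which encodes polyubiquitin, had 22.1, 29.7, 106 and 5.82 CPM in the CLP libraries and 468, 556, 299.9 and 304 CPM in the sham libraries. Both were far lower in every CLP library, at -4.75 ± 1.46 (adjusted p = 0.192) and -3.32 ± 0.98 (adjusted p = 0.171). Tmem176b had a log2 fold change of -1.26 ± 0.38 (adjusted p = 0.180).

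In the main reading no nuclear gene of the respiratory chain or of the ribosome passed, and the medians of these lists shifted with the scaling. Of 37 complex I genes 16 were counted in all 8 libraries, with a median of -0.35. The 21 such genes of complexes II to IV had a median of -0.28 and the 12 of ATP synthase -0.37. With library totals in place of TMM factors these medians were -0.50, -0.47 and -0.54 in that order. Sdha, the flavoprotein subunit of succinate dehydrogenase, had 174, 236, 355 and 253 CPM in the CLP libraries and 408, 575, 788 and 744 CPM in the sham libraries, every CLP value being lower (-1.31 ± 0.54, adjusted p = 0.383). For ribosomal proteins the 20 genes of the large subunit had a median of 0.27 and the 18 of the small subunit 0.23. These were 0.02 and 0.05 with library totals and -0.15 and -0.17 with filterByExpr, so the sign of both depended on the setting. In the 28-library fit 20.5% of all genes tested were lower and 1.8% higher. There 5 of 37 complex I genes and 2 of 16 ATP synthase genes were lower and none higher. None of the 25 genes of complexes II to IV passed. Of the 46 large-subunit genes of the ribosome tested 4 were lower (Rpl19, Rpl10a, Rpl7a and Rpl13a) and none higher, and none of the 31 small-subunit genes tested passed. Among these Rpl41 had 1507, 508, 657 and 897 CPM in the CLP libraries and 302, 203, 329 and 278 CPM in the sham libraries (1.68 ± 0.52, adjusted p = 0.193). Ribosomal protein genes took 1.53 ± 0.113% of counts with CLP and 1.701 ± 0.189% with sham (SD, n = 4 each; exact permutation test, two-sided, p = 0.229).

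Most genes that define capillary endothelium could be described only by their counts. The adhesion protein Pecam1 had raw counts of 0, 835, 1 and 0 in the CLP libraries and 774, 1211, 218 and 1476 in the sham libraries. Kdr, the main VEGF receptor, had 1, 107, 1 and 0 in the CLP libraries and 4301, 1134, 1626 and 1985 in the sham libraries. All Kdr counts were lower with CLP, whereas CLP replicate 2 reached the sham range for Pecam1. Emcn, a sialoglycoprotein of capillaries and veins, had 0, 271, 2014 and 0 in the CLP libraries and 455, 1151, 680 and 1546 in the sham libraries. Plvap, which forms the diaphragms of fenestrae, had 0, 1096, 0 and 628 in the CLP libraries and 1691, 1271, 578 and 564 in the sham libraries. Both overlapped between groups and were at 0 in 2 CLP libraries each. Cd34 was counted in 1 CLP library and in 2 sham libraries, and the junction protein Cdh5 in no CLP library and in 1 sham library. A count of 0 allows up to 0.284 to 0.528 CPM of the unscaled total in a CLP library, taking 3 counts as the floor for counting error alone.

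In the fit of all 28 peritubular libraries, which tested genes with or without CLP counts, 3 of the 17 pan-endothelial genes were lower and none higher at an adjusted p below 0.05, where 20.5% of all 11772 genes tested were lower and 1.8% higher. They were Kdr (log2 fold change -6.16 ± 1.67, adjusted p = 0.0130), Robo4, a guidance receptor of endothelium, and Egfl7, a protein that endothelium secretes. In whole kidney Pecam1 had a log2 fold change of 0.31 (adjusted p = 0.402) and Kdr of 0.00 (adjusted p = 0.997). Of the 14 capillary and venous endothelial genes 4 were counted in all 8 libraries and none passed, with 3 of the 4 log2 fold changes above 0. In the 28-library fit 2 of 12 tested were lower (Npr3 and Gpihbp1) and none higher. Nr2f2, the transcription factor of venous identity, had 709, 624, 199 and 1017 CPM in the CLP libraries and 139, 126, 309 and 150 CPM in the sham libraries, overlapping at sham replicate 3 (1.82 ± 0.66, adjusted p = 0.312). Aqp1, a water channel that capillaries share with proximal tubule, had 960, 744, 285 and 1118 CPM in the CLP libraries and 732, 1509, 2558 and 956 CPM in the sham libraries (-0.89 ± 0.53, adjusted p = 0.572). The fatty acid carrier Cd36 and the matrix protein Igfbp7 varied widely within both groups (1.26 ± 1.29 and 0.24 ± 0.91). The sign was negative for Cd36 with limma voom (-0.19), and for Igfbp7 with scaling by library totals (-0.02) or with wider gene filters (-0.15 and -0.20).

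**Figure D4:**
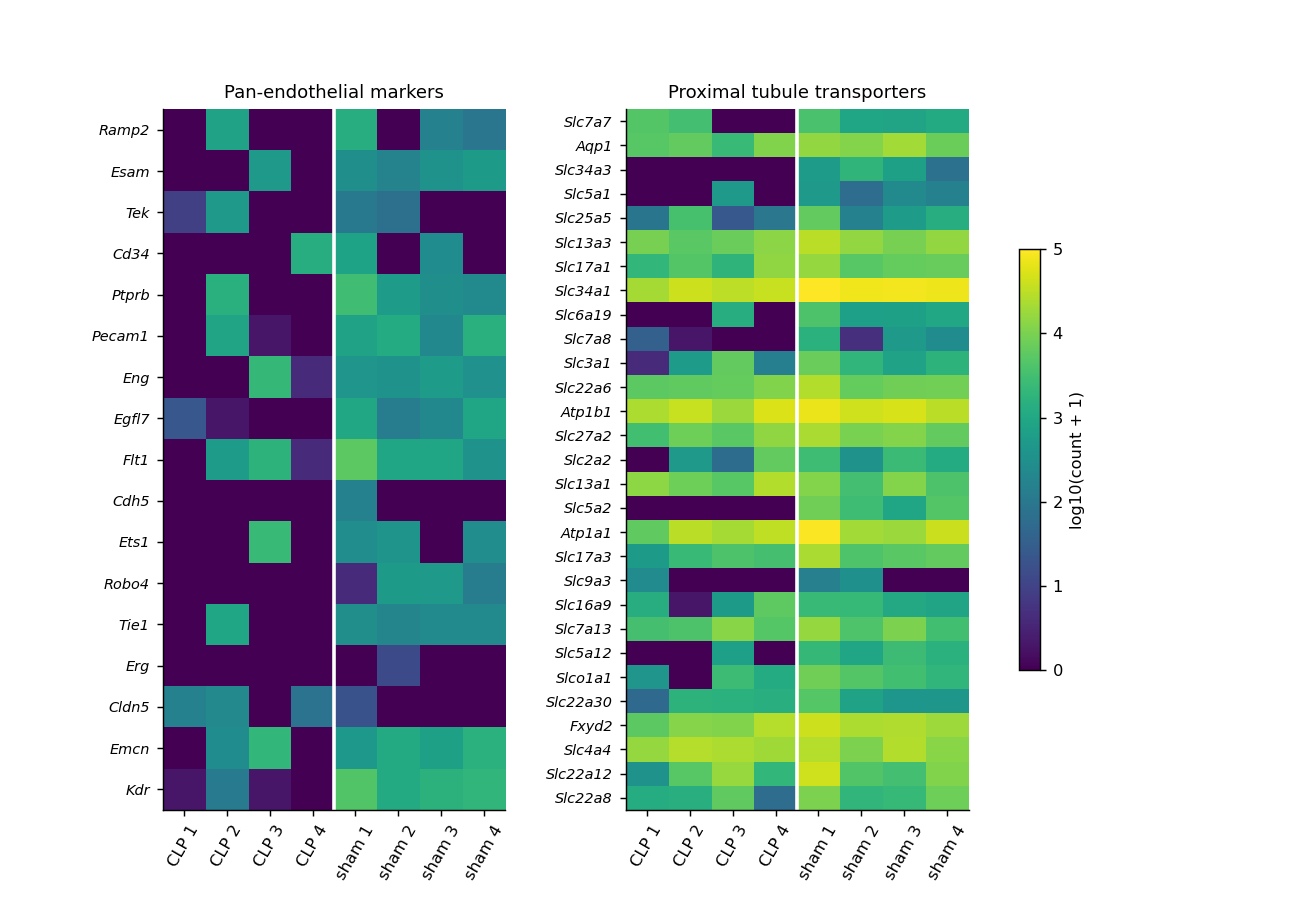
Raw counts, as log10(count + 1), of 17 pan-endothelial genes (left) and 29 proximal tubule transporters (right) in each library, with CLP replicates 1 to 4 left of the white line and sham replicates 1 to 4 right of it. Of the 17 endothelial genes 4 to 10 had a count in a CLP library and 12 to 16 in a sham library, and 19 of the 29 transporters were counted in all 8 libraries.

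Matrix and glycocalyx genes were as sparse. Col4a1, a chain of basement membrane collagen, had 181, 137, 22.3 and 2.71 CPM in the CLP libraries and 332, 270, 342 and 398 CPM in the sham libraries, lower in every CLP library (-1.97 ± 1.08, adjusted p = 0.534). Ext1, which polymerises heparan sulfate, had 163, 172, 162 and 174 CPM in the CLP libraries and 60.5, 25.2, 63.5 and 37.9 CPM in the sham libraries, higher in every CLP library (1.84 ± 0.92, adjusted p = 0.481). These were the members of the matrix and glycocalyx lists counted in all 8 libraries.

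Genes of coagulation and inflammation, the subject named in the title of the series, mostly lay outside the main reading. Of the 26 procoagulant genes 1 was counted in all 8 libraries (F13b, a subunit of factor XIII, with overlapping values and a log2 fold change of 1.02), of the 16 anticoagulant genes none, and of the 14 adhesion molecules and 27 cytokines and chemokines none. Proc, the zymogen of the anticoagulant protease protein C, had raw counts of 1, 701, 4128 and 0 in the CLP libraries and 5359, 4311, 3247 and 2458 in the sham libraries. The adhesion molecule Icam1 had 0, 432, 0 and 7 in the CLP libraries and 0, 25, 5 and 15 in the sham libraries. Both overlapped. Anxa5, an anticoagulant that covers phosphatidylserine, and Nos3, the endothelial nitric oxide synthase, were at 0 in every CLP library and counted in every sham library, with 24 to 542 and 1 to 832 counts. Of the 11 anticoagulant genes tested in the 28-library fit 5 were lower and none higher, where 20.5% of all genes tested were lower and 1.8% higher, and all 5 (Anxa5, Nos3, Thbd, Ptgis and Serpine2) had no count in any CLP library. Of the 12 procoagulant genes tested 2 were higher, fibrinogen alpha chain Fga (raw counts of 0, 0, 0 and 623 in the CLP libraries and 0, 2, 0 and 0 in the sham libraries) and thrombospondin Thbs1 (0, 719, 0 and 0 in the CLP libraries and 0 in all sham libraries). The coagulation factor F5 was lower, at 0 in all CLP libraries and at 0, 275, 0 and 506 in the sham libraries. Vcam1 was also lower in that fit, on the counts of a single sham library (1733, against 0 in the other 7), so a pass there can rest on 1 mouse.

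Of the 16 genes of the neutrophil list, 10 had no count in any of the 8 peritubular libraries. In the 28-library fit 2 of the 3 tested were higher (Lcn2 and S100a9) and none lower, where 1.8% of all genes tested were higher. S100a9, a calcium-binding protein of neutrophils, had raw counts of 0, 492, 0 and 0 in the CLP libraries and 0 in all sham libraries. In whole kidney 10 of the 11 tested genes of the list were higher with CLP, with a median log2 fold change of 6.15, where 1.74% of all genes tested there were higher. Lcn2 (lipocalin 2), a gene of neutrophils and injured tubules, had raw counts of 1126, 0, 0 and 262 in the CLP libraries and 0 in all sham libraries. The injury marker Havcr1 was at 0 in all 8, while Spp1 (osteopontin) had 252, 414, 281 and 21.5 CPM in the CLP libraries and 98.1, 24.0, 22.03 and 57.2 CPM in the sham libraries, overlapping at CLP replicate 4 (2.27 ± 1.06, adjusted p = 0.444). Mt2, a metallothionein, had raw counts of 13, 52, 0 and 0 in the CLP libraries and 1417, 224, 170 and 845 in the sham libraries, all lower with CLP. In the 28-library fit it was lower (-4.97 ± 1.12, adjusted p = 0.00283), and in whole kidney of the same mice it was higher with CLP (0.96 ± 0.25, adjusted p = 0.0238).

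Detection itself separated the groups for many genes. Of the 14160 genes, 475 (3.35%) had counts in all 4 sham libraries and in no CLP library, and none had the reverse. Without CLP replicate 2 the number was 946, and without sham replicate 3 it was 799, where leaving out a library can only keep or raise it. The gene of highest sham level among them was Slc5a2, the glucose transporter SGLT2 of the early proximal tubule, with 443, 378, 104 and 650.0 CPM of the unscaled total in the sham libraries. Its mean sham level was 1059 times the mean floor of the CLP libraries, a floor for counting error alone. Other genes, such as Cyp4a10 and Proc, were at 0 in a CLP library and had many counts in another, so this ratio does not bound the fall. In whole kidney Slc5a2 averaged 272 ± 25.6 CPM with CLP and 340 ± 19.5 CPM with sham (log2 fold change -0.32 ± 0.17, adjusted p = 0.429). Next came Psmb6, a catalytic subunit of the proteasome (348 ± 171 CPM, likewise unscaled, in sham libraries, 935 times the floor). Coasy, coenzyme A synthase, followed (312 ± 249 CPM, 838 times the floor). Slc9a8, a sodium-proton exchanger, had 179 ± 61.1 unscaled CPM in sham libraries. It fell in whole kidney as well, by 1.94 (adjusted p = 1.31e-10) on the log2 scale. Across the 474 of these genes tested in whole kidney, 23 (4.85%) were lower and 6 (1.27%) higher, with a median log2 fold change of -0.03, against 2.15% and 1.74% of all genes tested there.

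The 28-library fit passed 2625 genes, 2413 lower and 212 higher (22.3% of those tested). Of the lower genes 2099 had no count in any CLP library, and 41 were counted in all 4. Of the 212 higher genes 177 had no count in any sham library. Of the genes that passed, 436 had counts in 1 of the 8 libraries and 710 in 2. The median log2 fold change of all genes tested there was -1.28, and that of genes counted in all 8 libraries -0.15. Among the 845 genes counted in all 8 that this fit tested, 41 were lower (4.85%) and 5 higher (0.592%), with mt-Rnr2, mt-Rnr1, Cyp4a14 and Slc6a6 among the higher ones. The count of genes that passed was 605 without CLP replicate 3 and 589 without CLP replicate 1.

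**Figure D5:**
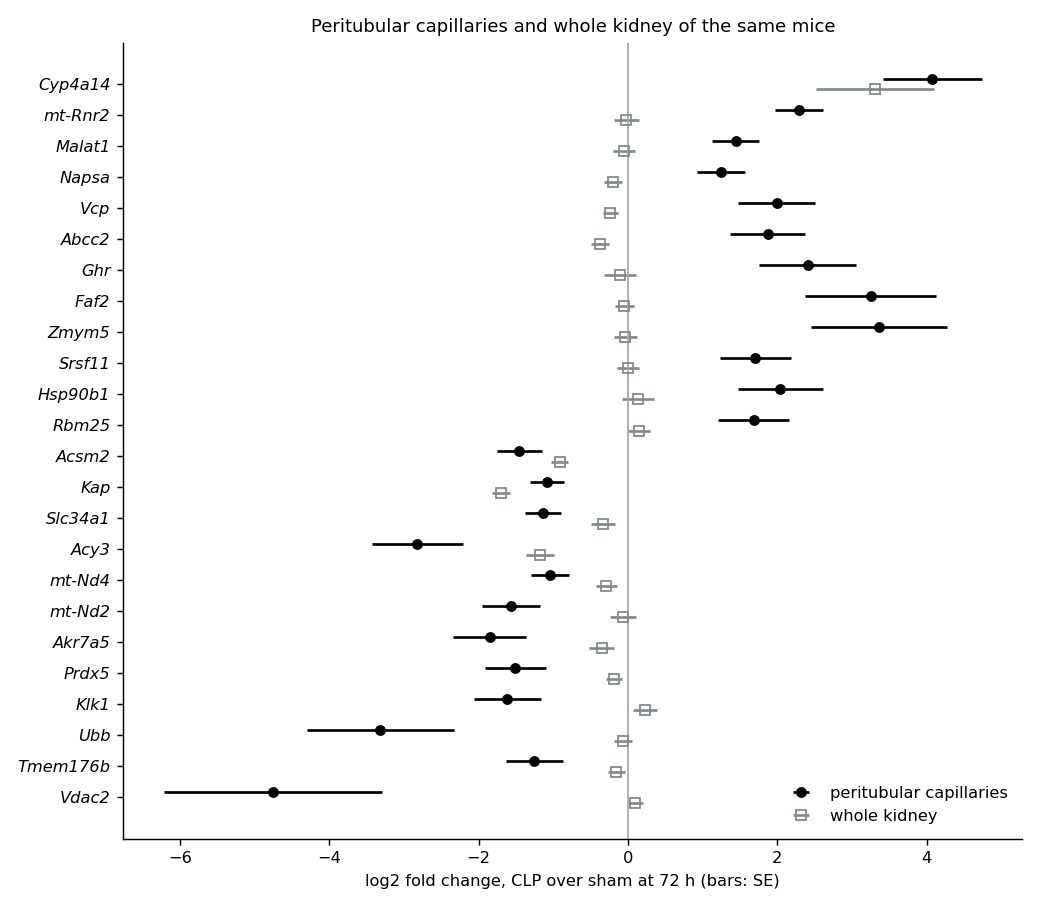
Log2 fold changes of CLP over sham at 72 h, with SE bars, for the genes named by rule, in peritubular libraries and in whole kidney of the same mice. Cyp4a14, Acsm2, Kap and Acy3 lie on the same side of 0 in both, while mt-Rnr2 is at 2.29 in peritubular libraries and at -0.02 in whole kidney.

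Whole kidneys of the same 8 mice were read in libraries of their own. Of the genes counted in all 8 peritubular libraries, 69 of 843 fell in whole kidney (8.19%) and 11 rose (1.3%), where 2.15% and 1.74% of all 14936 genes did so (3.89% in either direction). Of the 48 genes with CLP values wholly below sham in peritubular libraries, 14 fell in whole kidney and none rose, with a median log2 fold change of -0.21. Of the 49 tested genes with CLP values wholly above, 2 rose (Cyp4a14 and Wfdc2) and 1 fell (Csad, an enzyme of taurine synthesis), with a median of -0.02. Kap (-1.701, adjusted p = 6.71e-11), Acsm2 (-0.92, adjusted p = 2.29e-06) and Acy3 (-1.18, adjusted p = 8.21e-05) fell in whole kidney, and Slc34a1 did not pass there (-0.34, adjusted p = 0.324). Malat1 (-0.05) and Hsp90b1 (0.13) did not pass in whole kidney. A test of the difference between the compartments passed for none of the 848 genes, against whole kidney or against post-capillary venules (edgeR quasi-likelihood test; 93 and 50 genes at an unadjusted p below 0.05, and none with limma). For mt-Rnr2 the difference was 2.19 ± 0.40 against whole kidney (adjusted p = 0.195) and 2.21 ± 0.51 against venules (adjusted p = 0.588).

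Set against the peritubular libraries at 24 h, which come from other mice, the CLP change differed for 1523 of 11772 genes (12.9%), 1280 of them lower at 72 h (10.9%) and 243 higher (2.06%). Restricted to the 740 genes counted in all 16 libraries of both times, 1 gene passed, mt-Rnr2 (difference 2.08). The level of mt-Rnr2, scaled over the 28 libraries, averaged 54342 CPM with CLP and 51907 CPM with sham at 4 h, 39317 CPM with CLP and 38897 CPM with sham at 24 h, and 138306 CPM with CLP and 34636 CPM with sham at 72 h, beside 47855 CPM in healthy mice. Its change at 72 h exceeded that at 24 h by 1.98 ± 0.42 on the log2 scale (adjusted p = 0.0100). Cyp4a14 was higher already at 24 h, with 2133 to 5322 CPM in CLP libraries and 237 to 469 CPM in sham libraries, and its changes at the 2 times differed by 0.34 ± 1.34 (adjusted p = 1.00). Slc34a1 fell at 24 h (-1.46, adjusted p = 5.27e-04) as in the 28-library fit at 72 h, with a difference of 0.02 ± 0.36. The change of Acy3 at 72 h minus that at 24 h was -2.01 ± 0.57 (adjusted p = 0.0139), and its CLP libraries averaged 1265 CPM at 24 h and 384 CPM at 72 h.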

How the data were processed

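The authors deposited 1 table of raw read counts per Ensembl gene (34255 genes), whole numbers with no normalisation. Per the submitters' processing notes, the tools were STAR 2.7, HTSeq 0.13, featureCounts and SAMtools 1.9, with FastQC 0.11.8 and MultiQC 1.7 for quality, and the builds GRCm38.p6 and GRCm39. Their roles, the strand setting and the handling of duplicates and of reads matching several places are not given in the sources used here. Symbols came from the table, and 549 of 561 missing ones from a reference list. Positions came from GENCODE M21 (GRCm38), by identifier. The labels put healthy mice at 0 h and the table at 4 h, which touches 20 libraries and none at 72 h, and the labels were used.

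CLP and sham at 72 h were compared in R 4.3.3 with edgeR 4.0.16 (two-sided quasi-likelihood test with robust dispersions, TMM factors and no covariate) on the 848 genes counted in all 8 libraries. Genes with a Benjamini-Hochberg adjusted p below 0.05 passed. CPM was taken per M of the library total after TMM scaling, except that sums over a list, floors and levels of genes counted in sham alone were per M of the unscaled total. A second fit took all 28 peritubular libraries (filterByExpr, 11772 genes), and gave the change at 24 h and the difference between times. Whole kidney was fitted on its own 28 libraries. Differences between compartments were fitted on the same mice, with the mouse as a block. Library values were compared by exact permutation. Alternatives used DESeq2 1.42.0, limma 3.58.1 (voom with quality weights), other scalings and filters, a replicate block, and each library left out in turn.

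Rule 1 named up to 12 genes in each direction, those that passed and then those of smallest p, with at least 20 CPM in the higher group and values that did not overlap. Further rules took members of 46 gene lists by level, list members counted in at least 4 libraries, defining capillary markers, the smallest p of each difference test and the genes counted in 1 group only. Of these the text gives a selection, and some genes are not reported here. Members, lists and rules were chosen with earlier results of these data known. The replicate numbers belong to different mice and paired no samples. No pair of libraries was identical. In the main reading and the permutation tests each p measures the spread between 4 mice per group. In the fits of 28 libraries the spread is pooled over 7 groups of 4 mice. In the tests between compartments it is the spread left within mice. The floor of 3 counts per library is for counting error alone, as several reads can stem from 1 molecule. Promoters came from RefSeq (GRCm38.p6). Cyp4a14 was not matched there.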

Additional observations from a re-analysis of the deposited data

Results flagged for a closer look

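Samples far from the others of their group were looked for in 106 groups of 4 values, and 7 were found. Chance gives about 1 in 20 groups. Sham replicate 1 had a total of 18.3 M counts, against 7.11 to 8.69 M in the other sham libraries. Sham replicate 3 stood apart in 4 genes. For mt-Nd2 it had 38647 CPM, against 12249 to 12758 CPM in the other sham libraries, and for Zmym5 10.9 CPM, against 47.3 to 50.9 CPM. For Nr2f2 it had 309 CPM, against 126 to 150 CPM, and for Slc4a4 3275 CPM, against 1298 to 1611 CPM. Sham replicate 4 had 4232 CPM of Klk1, against 1459 to 1783 CPM in the other sham libraries. CLP replicate 1 had 28.9 CPM of Vdac2, against 0.124 to 3.88 CPM in the other CLP libraries.

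The change with CLP differed between 72 h and 24 h, by a test of the difference itself, for 1523 genes in the fit of 28 libraries. The change at 72 h minus that at 24 h, on the log2 scale, was 1.98 for mt-Rnr2 and 1.28 for mt-Rnr1, the ribosomal RNAs of the mitochondrion. It was 3.05 for the chaperone Hsp90b1. It was -1.04 for mt-Nd4, -1.76 for Prdx5, -2.01 for Acy3 and -2.15 for Klk1. It was -3.71 for Col4a1 and -5.09 for Vdac2, both with CLP values near 0 in at least 1 library. At 72 h the CLP libraries also held fewer detected genes than at 24 h, and the part of this in the differences was not tested.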

How the results depend on the processing

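Among genes counted in all 8 libraries, 2 passed, both higher. DESeq2 passed 42 (33 higher, with 20 adjusted p not given), the 28-library fit of the same genes 42 (20 higher) and limma voom with quality weights 16 (12 higher), and 8 genes passed in these 3. Library totals gave 5 (2 higher, 3 lower), a minimum of 10 counts 6, filterByExpr 13 and any count 8. The median log2 fold change of the 848 genes was 0.16 with TMM, 0.25 with DESeq2 size factors, -0.02 with library totals and -0.24 with filterByExpr. Without 1 library, 0 to 3 passed, 0 without CLP replicate 2 or sham replicate 1 (113 and 63 at an unadjusted p below 0.05). The replicate numbers did not pair the samples (correlations of -0.14 to -0.05, 0 of 4 CLP libraries closest to their own number), and a replicate block passed 2 genes, mt-Rnr2 and Gm42418, with Cyp4a14 at an adjusted p of 0.142. Of 407 alternative values of the genes named by rule 1, 337 kept direction and side of the threshold, 9 no longer passed, 61 newly passed and 0 reversed. That rule took only genes without overlap between groups, so a reversal was unlikely by selection. Of the alternative medians of lists 133 moved by more than the SD over the 8 left-out libraries and 167 by less. Igfbp7 reversed with library totals (-0.022), filterByExpr (-0.15) and any count (-0.20), and ran from -0.22 to 1.03 without 1 library, and Cd36 reversed with the block (-0.63) and voom (-0.19). The 28-library fit passed 2625 genes, 4017 with DESeq2, 1032 with size factors, 650 without the filter, 841 with the block and 589 to 2261 without 1 library. The 1523 differences between times were 611 with the block and 1 among genes counted in all 16 libraries. As alternatives chosen after seeing the data, leaving out 1 library gave 56 to 78 higher and 54 to 79 lower genes without overlap, and 559 to 946 genes counted in sham alone. These counts can only stay or rise when a library is left out. Without 1 library, CLP minus sham was -4822 to -3752 detected genes, -2.94 to 0.802 M total counts (above 0 without sham replicate 1), 6.76 to 10.9 percentage points in mitochondrial share, 7.64 to 11.7 in the 100 highest genes and -5.91 to -4.35 in proximal tubule genes, with exact p of 0.0286 to 0.0857 for all but the totals. The ribosomal protein share reversed, to 0.00681 points, over counts outside the mitochondrial genome. The cause of these shifts was not tested. For genes at or near 0 in CLP libraries, a difference below the floor was not detectable.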
